A study of Mus musculus with 63 samples.

Results

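Nrxn2 and Nrxn3, the neuroligins Nlgn1, Nlgn2 and Nlgn3, and the leucine-rich repeat transmembrane genes Lrrtm1, Lrrtm2, Lrrtm3 and Lrrtm4 encode adhesion proteins that face each other across the synaptic cleft. These 9 genes were taken by symbol from the 20183 genes of a single-cell expression table, and all 9 were found. The table holds 63 neurons of layer 2/3 of the primary visual cortex (V1), 46 light-sensitive (LS) and 17 non-light-sensitive (NS), sorted by their calcium response to moving gratings and sequenced by Smart-seq2, which copies full-length mRNA of 1 cell and amplifies it by PCR. All cells came from wild type C57BL/6 mice of 70 days, held under light anesthesia with the calcium dye Cal-520 AM in the cortex, and the soma was drawn into the pipette. The LS and NS groups therefore differ by label only in phenotype, and no mouse is named for a cell.

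Neurexins sit mainly on the presynaptic side, where they help to organize transmitter release. Their postsynaptic ligands include neuroligins and LRRTM proteins, which recruit receptors and scaffolds. Neuroligin 1 is known mainly from glutamate synapses, neuroligin 2 from GABA synapses and neuroligin 3 from both, while LRRTM proteins are known from glutamate synapses. A single neuron makes both sides, so its mRNA holds neurexins for its axon and neuroligins and LRRTM proteins for its dendrites.

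Members of a family share protein domains, so it matters that their reads can be told apart. For each family, stretches of 60 coding bases, each within 1 exon, are shown (GENCODE M21 transcripts, build GRCm38). They were chosen for the fewest summed differences from the first gene of the set, and capitals mark where a base differs from it. Other pairs of a family were not searched in this way, and Lrrtm2 was left out. The first pair comes from the coding exons of the neurexins, chr19:6472279-6472338 (plus strand) for Nrxn2 and chr12:89193067-89193126 (plus strand) for Nrxn3, and differs at 7 bases.
Nrxn2: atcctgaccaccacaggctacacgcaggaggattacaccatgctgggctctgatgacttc
Nrxn3: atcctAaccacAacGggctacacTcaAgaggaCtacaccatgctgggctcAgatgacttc

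The neuroligin stretches lie at chr3:25434042-25434101 (minus strand) for Nlgn1, chr11:69825643-69825702 (minus strand) for Nlgn2 and chrX:101319820-101319879 (plus strand) for Nlgn3. Nlgn2 differed from Nlgn1 at 10 bases and Nlgn3 at 7.
Nlgn1: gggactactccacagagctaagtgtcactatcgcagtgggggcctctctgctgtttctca
Nlgn2: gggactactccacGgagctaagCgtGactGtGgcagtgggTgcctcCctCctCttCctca
Nlgn3: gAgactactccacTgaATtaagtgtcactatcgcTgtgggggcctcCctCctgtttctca

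The LRRTM stretches lie at chr6:77244191-77244250 (plus strand) for Lrrtm1, chr10:64088710-64088769 (minus strand) for Lrrtm3 and chr6:80022227-80022286 (plus strand) for Lrrtm4, and Lrrtm3 and Lrrtm4 each differed from Lrrtm1 at 15 bases.
Lrrtm1: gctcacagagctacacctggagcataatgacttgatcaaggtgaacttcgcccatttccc
Lrrtm3: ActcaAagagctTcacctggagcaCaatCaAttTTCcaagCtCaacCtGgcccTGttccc
Lrrtm4: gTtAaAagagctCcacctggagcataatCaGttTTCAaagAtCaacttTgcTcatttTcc

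Over the whole coding sequences, the longest identical run between any pair of the 9 genes was 23 bases, so no long stretch of coding sequence is shared. Nested and overlapping genes matter more. Lrrtm1 lies within Ctnna2, Lrrtm2 within Ctnna1 and Lrrtm3 within Ctnna3, the genes of alpha-catenins, but of these only Lrrtm2 shares exon bases with a coding gene (95 bases). Nrxn2 shares 682 exon bases with coding genes, and Nlgn3 shares 3823 of its 9271 exon bases with genes that do not code for protein, where reads without strand cannot be assigned with certainty.

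After the filters that the study describes, 47 cells were kept, 35 LS and 12 NS. Reads recovered from the values numbered 380876 to 2513250 in an LS cell (median 907974) and 154792 to 892714 in an NS cell (median 324460). The libraries also differed in reads on 1031 odorant, vomeronasal and taste receptor genes, which cortical neurons are not known to use. The mean FPKM (fragments per kilobase of exon and 1000000 reads) of these receptor genes, as a percentage of the level at which all reads would lie evenly over exons, stood at a median of 2.48% in the LS libraries and 40.6% in the NS libraries. It reached 10% in 4 of 35 LS cells and 9 of 12 NS cells. NS libraries were thus shallower and held more reads of this kind, and a result between LS and NS cells cannot be told apart from this difference, with 3 NS cells under 10%. The summed FPKM of 8 general neuron markers (Snap25, Syt1, Rbfox3 and others) had a median of 887 in LS cells and 66.7 in NS cells, with ranges of 2.89 to 1613 and 0.587 to 1716. Summed FPKM of 6 astrocyte markers had medians of 65.0 and 50.9.

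Cells were also divided by transmitter markers. A cell was called glutamate-marked where the summed FPKM of Slc17a7 and Neurod2 was above that of Gad1 and Gad2, and GABA-marked in the opposite case. This gave 30 glutamate-marked and 4 GABA-marked LS cells (LS_9, LS_14, LS_15 and LS_39) with 1 LS cell of neither kind, and 2 glutamate-marked, 6 GABA-marked and 4 NS cells of neither kind. In 1 of these cells, NS_8, the sums lay within 2-fold of each other. Other cells also had reads of both sets. The glutamate and GABA sums were, for example, 28.8 and 375 in NS_16, called GABA-marked, and 33.7 and 10.3 in LS_30, called glutamate-marked. LS_9 had the highest receptor-gene level of the kept LS cells, 31.4%. LS_39 had 2209 genes above 1 FPKM, against a median of 5893 in LS cells. Its summed FPKM of Gad1 and Gad2 was 9.25, against 117 in LS_9, 692 in LS_14 and 95.1 in LS_15. The part of this in the values at 0 of these cells was not tested. Of 7 glutamatergic markers, which include Slc17a7 and Neurod2 of the class rule, 3 had reads in the 4 GABA-marked LS cells, with a summed FPKM of 28.7 to 594 and a median of 289 against 844 in the glutamate-marked LS cells. The GABA-marked LS cells also held more RNA of glial markers, with a median summed FPKM of 215 for the 6 astrocyte markers and 229.9 for the 4 microglia markers, against 53.0 and 14.8 in the glutamate-marked LS cells, and less of the general neuron markers (362 against 892), and the part of this in the results by class was not tested. The 2 glutamate-marked NS cells had no read of Snap25, Syt1, Nefm or Tubb3, so the marker class of NS cells was used as a label of the markers only.

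As the cells of a group are not known to come from separate mice, LS and NS were treated as 1 sample each. No test between groups was made. Every SD is the spread between cells, and every interval is an exact 95% interval. Intervals of reads cover counting error only. Intervals of a share of cells treat the cells as separate draws and do not cover differences between mice. A limit for a count of 0 is not such an interval but takes 3 counts as the floor. A ratio of means of 2-fold or more was used as a size, not as a call. Values are FPKM unless another scale is named, and ratios are log2 of the ratio of mean FPKM.

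**Figure D1:**
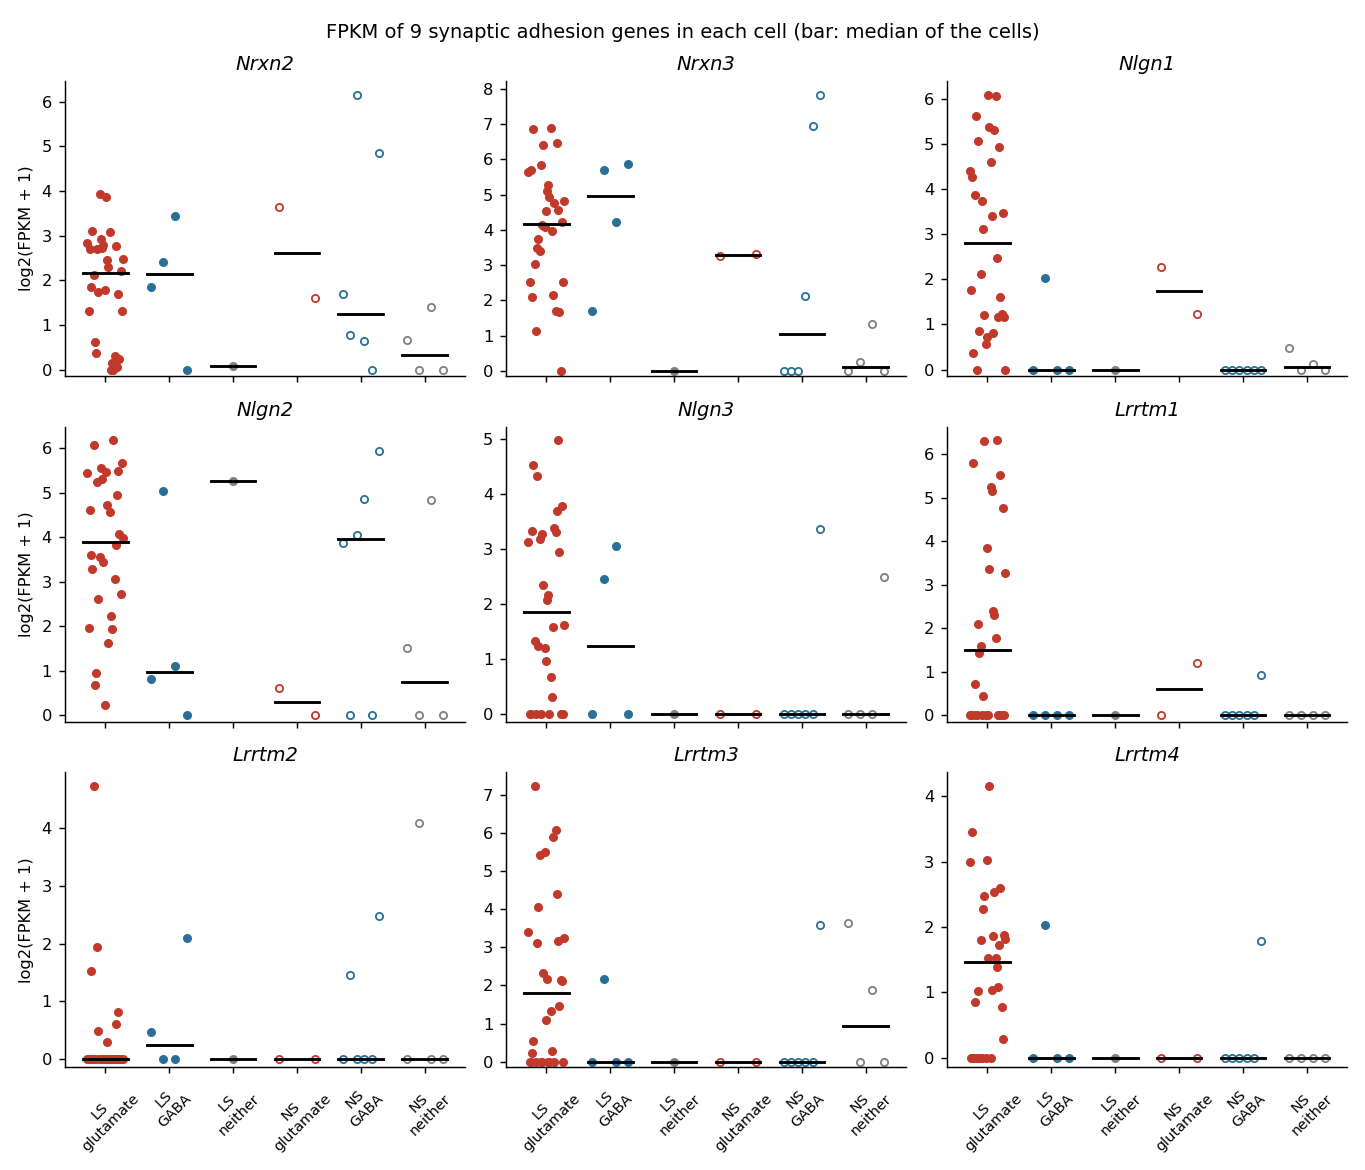
FPKM of each of the 9 genes in each of the 47 kept cells, as log2(FPKM + 1) on the vertical axis, with 1 point per cell, filled for LS and open for NS, by marker class on the horizontal axis and with the median as a bar. Nlgn1 lay above 0 in 28 of 30 glutamate-marked LS cells and in 1 of the 10 GABA-marked cells of both groups.

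The neurexin genes were detected in nearly every LS neuron, and Nrxn3 was the more abundant. Nrxn3 (chromosome 12, 88722876 to 90334935, plus strand) had reads in 33 of 35 LS cells and 7 of 12 NS cells. Its FPKM in LS cells ran from 0 through a median of 17.6 to 117, with a mean of 28.8 ± 31.5 (SD, n = 35). NS cells ran from 0 through a median of 0.844 to 226, with a mean of 31.02 ± 70.7 (SD, n = 12). The means were alike and the medians were not, because the GABA-marked cells NS_16 and NS_13, at 226 and 123, held most of the NS sum, and the other NS cells reached at most 9.04. LS relative to NS was -0.10 on the log2 scale, and 1.12 without NS_16. Both NS_16 and NS_13 had a low receptor-gene level, 2.84% and 4.13%.

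Nrxn2 (chromosome 19, 6418731 to 6544169, plus strand) had reads in 32 of 35 LS cells and 9 of 12 NS cells. In LS cells its FPKM ran from 0 through a median of 3.35 to 14.2, with a mean of 3.85 ± 3.67 (SD, n = 35). The NS range was 0 to 70.3, the median 1.17 and the mean 9.78 ± 20.7 (SD, n = 12). Here too the NS mean rested on few cells, with 70.3 in NS_11, 27.9 in NS_16 and 11.4 in NS_8. The log2 ratio of LS to NS was -1.34 but changed to -0.15 without NS_11, a cell whose receptor-gene level was 106%. On the mean of log2(FPKM + 1) the difference turned to 0.05.

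Within LS cells neither neurexin gene differed by 2-fold between marker classes. Nrxn3 was 2.27 in LS_9, 50.5 in LS_14, 17.7 in LS_15 and 57.1 in LS_39, against 29.4 ± 32.6 (SD, n = 30) in the glutamate-marked LS cells. Nrxn2 was 2.63, 4.33, 9.94 and 0 in the same cells, against 3.93 ± 3.66 (SD, n = 30). The log2 ratios of glutamate-marked to GABA-marked means were -0.12 for Nrxn3 and -0.10 for Nrxn2, the latter 0.76 without LS_15, and all 4 GABA-marked values of both genes lay inside the range of the glutamate-marked cells.

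Of the summed FPKM of the pair, Nrxn3 held a mean of 77.6% ± 24.1 (SD, n = 35 LS cells) and the larger share in 31 of 35 LS cells. In NS cells with a read of either gene it led in 5 of 11. The deposited Nrxn2 values move in steps that correspond to an exon length of 27624 bases, which is 2 times the annotated 13812. Per annotated length its FPKM would double, to 7.71 ± 7.33 (SD, n = 35) in LS cells, and Nrxn2 would lead in 6 of 35 of them instead of 4. Ratios of Nrxn2 between cells do not depend on this length.

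Among the neuroligins, Nlgn1 was found in most glutamate-marked cells and in 1 GABA-marked cell, and Nlgn2 in most cells of both classes. Nlgn1 (chromosome 3, 25426215 to 26332460, minus strand) had reads in 29 of 35 LS cells (82.9%, interval 66.4 to 93.4%) and in 4 of 12 NS cells (33.3%, interval 9.92 to 65.1%). Its FPKM in LS cells ran from 0 through 3.06 to 67.2, with a mean of 13.2 ± 18.9 (SD, n = 35). In NS cells it ran from 0 through 0 to 3.85, with a mean of 0.473 ± 1.13 (SD, n = 12) from 28 reads in all. The highest NS values were those of NS_8 and NS_9, the glutamate-marked NS cells, at 3.85 and 1.34. LS exceeded NS by a log2 ratio of 4.80, and by 6.31 without NS_8. Among cells with a receptor-gene level under 10% it was 8.75, which rested on 0.0938 FPKM in NS_14 and 0 in the other NS cells. None of the 4 NS values exceeded the mean FPKM of the receptor genes in the same cell, so these NS values lay at or below that background.

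Between marker classes of LS cells, Nlgn1 had reads in 28 of 30 glutamate-marked cells, at 15.3 ± 19.6 (SD, n = 30). Of the GABA-marked cells it was 0 in LS_9, LS_15 and LS_39 and 3.06 in LS_14, which made the log2 ratio 4.32. With all 63 cells it was 2.20, and LS_8, a GABA-marked cell that the filters remove, had 14.6. The GABA-marked NS cells added 0 of 6. Without LS_14, Nlgn1 was listed at 0 in all remaining GABA-marked cells. The same counts of cells with a read, 1 of 4 and 0 of 4, were found after the libraries were thinned to 200000 reads, which left out 2 shallower GABA-marked NS cells, while 27 of 30 glutamate-marked LS cells still had a read.

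Nlgn2 (chromosome 11, 69823122 to 69837784, minus strand) was the neuroligin with reads in the most cells, 34 of 35 LS and 7 of 12 NS. LS values ran from 0 through 13.2 to 71.4, with a mean of 20.8 ± 20.04 (SD, n = 35). NS values ran from 0 through 1.19 to 60.7, with a mean of 12.3 ± 18.7 (SD, n = 12). The log2 ratio was 0.76 and reached 1.40 without NS_16, the highest NS cell, and it was -0.38 among cells with a receptor-gene level under 10%.

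All 30 glutamate-marked LS cells had reads of Nlgn2, from 0.168 through 13.9 to 71.4. In the GABA-marked LS cells Nlgn2 was 0.762 in LS_9, 31.8 in LS_14, 1.16 in LS_15 and 0 in LS_39. Their log2 ratio to the GABA-marked mean, 1.37, depended on single cells, since it was 5.10 without LS_14 and 0.96 without LS_39. The 6 GABA-marked NS cells ran from 0 through 14.6 to 60.7 with reads in 4, and with LS and NS cells joined the ratio was 0.44. GABA-marked cells of both groups thus held values from 0 up to the level of the higher glutamate-marked cells. The single LS cell without either set of transmitter markers had 37.4.

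Nlgn3 (chromosome X, 101299168 to 101325963, plus strand) was lower and less often detected. It had reads in 25 of 35 LS cells, with values from 0 through 2.07 to 30.7 and a mean of 5.37 ± 7.11 (SD, n = 35). In NS cells only NS_16 and NS_15 had reads, at 9.28 and 4.61, and the mean was 1.16 ± 2.88 (SD, n = 12). The log2 ratio was 2.21, 3.68 without NS_16 and 0.97 among cells with a receptor-gene level under 10%. Within LS cells, 23 of 30 glutamate-marked cells had reads, and GABA-marked LS_14 and LS_15 stood at 4.50 and 7.34 with 0 in LS_9 and LS_39. The ratio of classes was 0.99, just under 2-fold, with 1.97 without LS_15 and 0.57 without LS_39.

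Nlgn2 held a mean of 56.2% ± 31.3 (SD, n = 34) of the summed neuroligin FPKM of LS cells with a read of the family, Nlgn1 held 26.2% ± 25.9 and Nlgn3 17.6% ± 22.1. Nlgn2 led in 21 of the 34 cells, Nlgn3 in 7 and Nlgn1 in 6. All 6 cells led by Nlgn1 were glutamate-marked. In the 4 GABA-marked NS cells with a neuroligin read, Nlgn2 led in all 4 and held 96.7% ± 6.63 (SD, n = 4). It was the only neuroligin with a read in 3 of them. Among these cells, NS_6 and NS_11 had receptor-gene levels of 99.1% and 106%. Their Nlgn2 values, 13.6 and 15.5, lay little above their receptor-gene means of 10.3 and 11.1. The 2 glutamate-marked NS cells were led by Nlgn1 instead, on 26 reads of Nlgn1 and 1 read of Nlgn2. All 3 neuroligins were found together in 23 of 35 LS cells and in 0 of 12 NS cells, which allows a share of such cells of up to 25% by a limit of 3 counts.

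**Figure D2:**
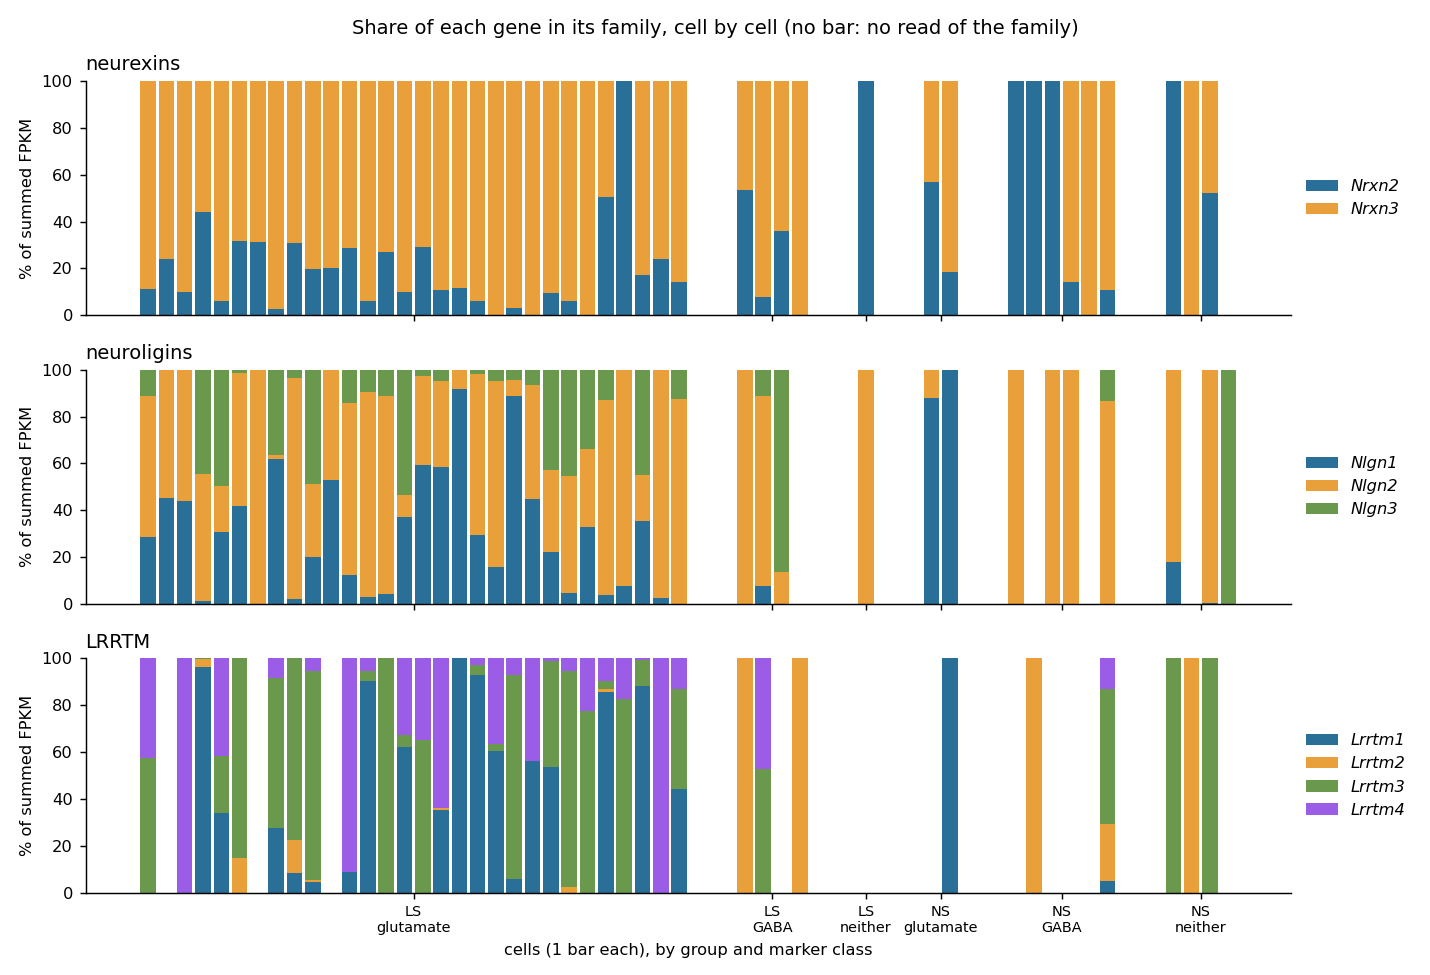
Share of each gene in the summed FPKM of its family (vertical axis, percent), with 1 bar for each of the 47 kept cells by group and marker class. Nrxn3 fills most of the bar in 31 of 35 LS cells, Nlgn2 leads in 21 LS cells, and the LRRTM bars change their leading gene from cell to cell.

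The LRRTM genes were patchy, high in some LS neurons and without a read in others. Lrrtm1 (chromosome 6, 77242689 to 77257791, plus strand) had reads in 18 of 35 LS cells (51.4%, interval 33.99 to 68.6%) and 2 of 12 NS cells (16.7%, interval 2.09 to 48.4%). LS values ran from 0 through 0.371 to 79.1, with a mean of 11.6 ± 21.9 (SD, n = 35) from 1663 reads. The NS mean was 0.185 ± 0.441 (SD, n = 12) from 4 reads, 2 each in NS_9 and NS_16. The LS to NS ratio, 5.97 on the log2 scale, was 7.14 without NS_9, and the pooled reads gave 5.70 with an interval of 4.34 to 7.58.

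All 18 LS cells with Lrrtm1 were glutamate-marked, and their FPKM had a median of 9.03. LS_9, LS_14, LS_15 and LS_39 had no read of it. With 3 reads taken as the floor over these 4 cells, Lrrtm1 was at least 69.6-fold higher in pooled reads of the glutamate-marked LS cells, and the exact interval, which sets the limit for 0 reads higher, starts at a log2 ratio of 5.82. LS_8, which the filters remove, had 6.30 FPKM, and with all 63 cells the log2 ratio of the class means was 3.56. Still, 12 of the 30 glutamate-marked LS cells had no read of it either, and so the single GABA-marked cells lay within the range of the glutamate-marked ones.

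Lrrtm3 (chromosome 10, 63928472 to 64090277, minus strand) had reads in 22 of 35 LS cells, with values from 0 through 1.52 to 149 and a mean of 12.9 ± 29.1 (SD, n = 35). LS_11, at 149, held 32.9% of the LS sum. NS_2, NS_14 and NS_16 had 11.3, 2.66 and 10.9, and the NS mean was 2.07 ± 4.29 (SD, n = 12). On the log2 scale LS exceeded NS by 2.63, 2.10 without LS_11 and 3.38 without NS_2. Lrrtm3 stood above the receptor-gene mean in all 3 NS cells.

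By marker class, Lrrtm3 had reads in 21 of 30 glutamate-marked LS cells and in LS_14 alone of the GABA-marked LS cells, at 3.46. Their class means differed by a log2 ratio of 4.11 and rested on that cell, since the others were at 0. The mean in the glutamate-marked cells was 14.9 ± 30.998 (SD, n = 30).

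Lrrtm4 (chromosome 6, 80018877 to 80810143, plus strand) was found more evenly and at lower levels, in 23 of 35 LS cells, from 0 through 1.13 to 16.9 with a mean of 2.43 ± 3.50 (SD, n = 35). NS_16 was the single NS cell with reads, at 2.44. Its LS to NS log2 ratio, 3.58, therefore rested on NS_16, and without it Lrrtm4 had no read in NS cells. Of the GABA-marked LS cells, LS_14 alone had reads, at 3.09, against 2.74 ± 3.66 (SD, n = 30) in the glutamate-marked cells, and the log2 ratio of the classes was 1.82. The value of LS_14 lay above the mean of the glutamate-marked cells, and the ratio came from the 3 cells at 0.

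Lrrtm2 was the least detected of the 9 genes in LS cells. It had reads in 9 of 35 LS cells and 3 of 12 NS cells, with means of 1.03 ± 4.37 (SD, n = 35) and 1.87 ± 4.68 (SD, n = 12). LS_11 held 71.4% of the LS sum with 25.7, and NS_4 held 71.8% of the NS sum with 16.1. The log2 ratio was -0.86, and it changed to -2.62 without LS_11 and to 0.84 without NS_4. Between the LS marker classes it was 0.23, but -2.01 without LS_11 and 3.06 without LS_39, so no direction held.

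In the 27 glutamate-marked LS cells with an LRRTM read, Lrrtm1 and Lrrtm3 led in 11 each, Lrrtm4 in 5 and Lrrtm2 in 0. The leading gene alone accounted for all LRRTM reads in few of them, 1 cell for Lrrtm1, 1 for Lrrtm3 and 2 for Lrrtm4. The LRRTM sum of a glutamate-marked LS cell ran from 0 through 19.9 to 174.

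Taking the 9 genes together, 5 of 9 had an LS mean at least 2-fold above the NS mean (Nlgn1, Nlgn3, Lrrtm1, Lrrtm3 and Lrrtm4). Over all 16760 genes with a mean of at least 1 FPKM in either group, a filter that all 9 passed, the share was 33.8%, and 39.4% among genes whose LS mean lay within the range of the 9. In the other direction 1 of 9, Nrxn2, was at least 2-fold higher in NS cells, against 38.9% of all genes. The median log2 ratio of the 9 was 2.21 and that of all genes -0.20. In cells with a receptor-gene level under 10%, 31 LS and 3 NS, 4 genes were at least 2-fold higher in LS (Nlgn1, Lrrtm1, Lrrtm3 and Lrrtm4), against 68.6% of all genes in the same cells, and 2 in NS (Nrxn2 and Nrxn3), against 17.1%. With all 63 cells the log2 ratios of Nlgn1, Nlgn3 and Lrrtm1 were nearer to 0, at 3.66, 1.03 and 3.78. The spread between cells was wide in both groups, and in NS cells 1 cell held over 50% of the summed FPKM for 7 of the 9 genes.

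For the marker classes of LS cells, 5 of 9 genes had a glutamate-marked mean at least 2-fold above the GABA-marked mean (Nlgn1, Nlgn2, Lrrtm1, Lrrtm3 and Lrrtm4). This is near the share over all 14454 genes tested, 46.2%, or 53.1% within the range of levels of the 9. None was 2-fold higher in the GABA-marked cells, against 23.2% of all genes. The median log2 ratio was 1.37 for the 9 and 0.72 for all genes. Nlgn1, Lrrtm1, Lrrtm3 and Lrrtm4 passed 2-fold in both comparisons, and 30 of 35 LS cells but 2 of 12 NS cells were glutamate-marked, so light response and marker class cannot be told apart for them. The NS cells also included 4 without a read of either marker set, so few glutamate-marked cells does not mean few glutamatergic neurons. The study mapped its cells to published visual cortex data and placed most LS and most NS cells, in similar shares, in excitatory clusters. With 4 GABA-marked LS cells, 1 cell held over 50% of their sum for 7 of the 9 genes.

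**Figure D3:**
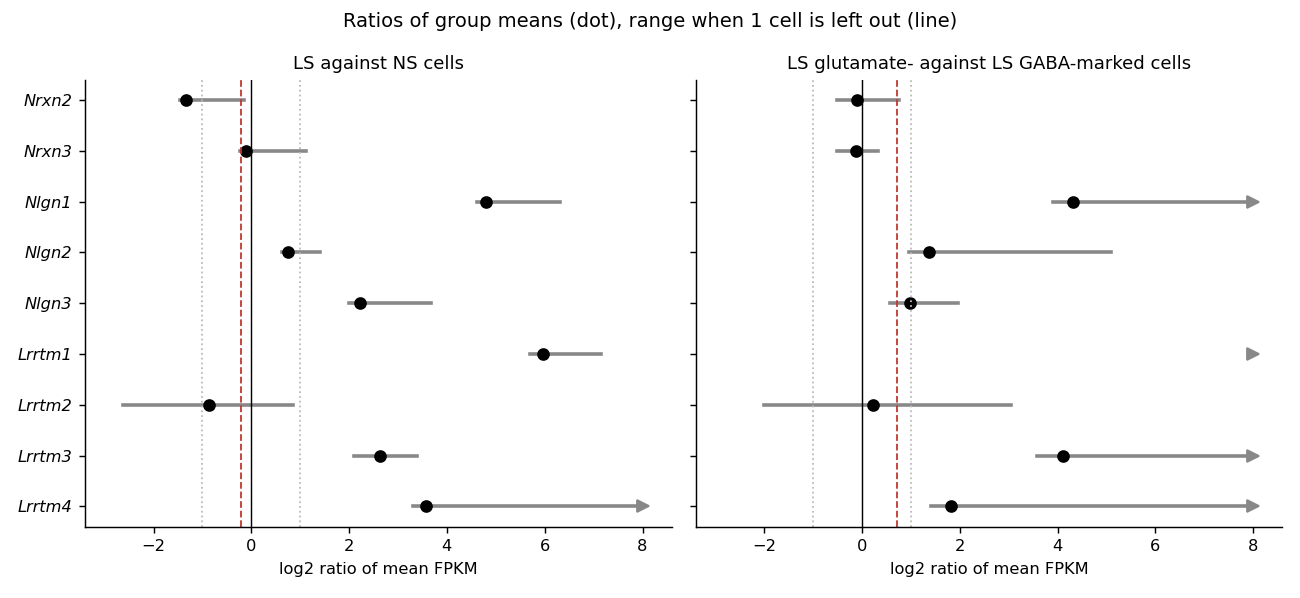
Log2 ratio of mean FPKM (horizontal axis) of each gene for LS against NS cells and for LS glutamate-marked against LS GABA-marked cells, with the value from all cells as a dot and its range when 1 cell is left out as a line. An arrow marks a group that falls to 0, the dashed line is the median of all genes (-0.20 and 0.72) and the dotted lines mark 2-fold. Nlgn1 stays at 4.61 or more on the left and 3.90 or more on the right, and Lrrtm2 crosses 0 on both.

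The number of the 9 genes with a read in a cell had a median of 7 in LS cells (range 2 to 9) and 2.5 in NS cells (range 1 to 8). Thinned to 200000 reads, 35 LS cells had a mean of 6.00 and the 9 NS cells deep enough had 3.11, against 6.43 and 3.33 in the same cells before thinning, so thinning moved the numbers little. For each of the 9 genes the share of cells with a read was larger in LS than in NS cells, as it was for 71.2% of all genes. For 7 of the 9 it was larger in glutamate-marked than in GABA-marked LS cells, against 60% of all genes. The receptor-gene level and depth moved with the number of genes. LS cells had 4 to 5 of the genes where that level was 10% or more (n = 4) and 2 to 9 where it was lower (n = 31), and NS cells had 1 to 4 (n = 9) and 1 to 8 (n = 3). Median reads were 458446 and 1006728 for these LS cells, and 285478 and 632467 for these NS cells. The part of the receptor-gene level in the result was not tested.

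**Figure D4:**
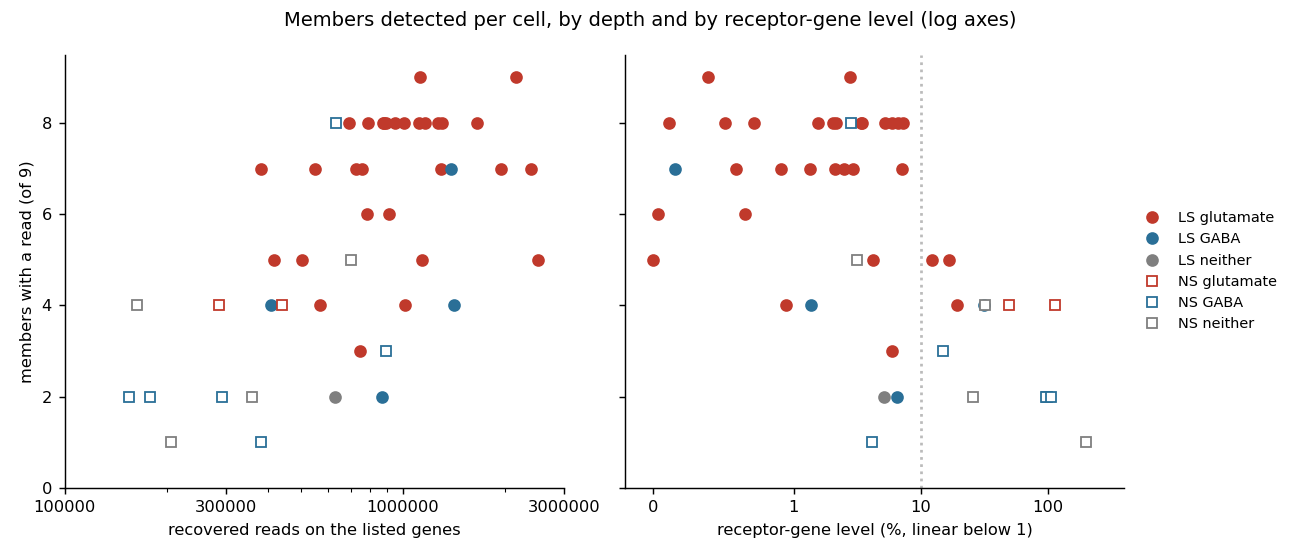
Number of the 9 genes with a read in a cell (vertical axis) against recovered reads and against the receptor-gene level in percent in the 47 kept cells (horizontal axes, logarithmic, the second linear below 1), with LS cells as filled circles and NS cells as open squares, colored by marker class. No kept cell at or above the dotted line at 10% had more than 5 genes, and NS_16, with 8 genes, is the kept NS cell with the lowest receptor-gene level.

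Among NS values with a read, 21 of 38 exceeded the mean FPKM of the receptor genes in the same cell, against 209 of 225 LS values. By gene, Nrxn2 did so in 3 of 9 NS cells, Nrxn3 and Nlgn2 in 5 of 7 each and Nlgn1 in 0 of 4. In LS cells the shares were lowest for Lrrtm2, 7 of 9, and Nrxn2, 25 of 32, and every value of Nlgn3, Lrrtm1 and Lrrtm4 with a read lay above. Per annotated length, Nrxn2 would lie above in 29 of 32 LS cells and 4 of 9 NS cells. Only values with a read entered these counts, while the receptor mean was taken over all 1031 receptor genes. Its median was 4.25 in the NS libraries but 0.258 in the LS libraries, and in LS_41 it was 0. Where this mean is that low, a value with few reads can exceed it. The LS and NS counts therefore cannot be told apart from this gap. By themselves they do not show that the genes rose above background in LS cells.

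Across the 30 glutamate-marked LS cells, Nrxn2 and Nrxn3 varied together, with a Spearman correlation of FPKM of 0.68, the highest among the 28 pairs of the 8 genes with reads in at least 50% of these cells. The next pair was Nlgn3 with Lrrtm3 at 0.36, and the 3 neuroligin pairs lay between 0.15 and 0.27. The cells share the library method and differ in depth. Both neurexin genes were lower in deeper libraries, with correlations of -0.40 for Nrxn2 and -0.35 for Nrxn3 against reads.

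Of the 6698 genes detected in 50% or more of the same cells, the pattern most like that of Nrxn2 was that of Nptx2 (0.78), which encodes a secreted pentraxin that clusters AMPA receptors, followed by Nrxn3 and Atp8a1 (0.67). For Nrxn3 they were Sorcs3 (0.82), a sorting receptor, Nptx2 (0.77) and Nrxn2. Nlgn1 was nearest to Fmn2 (0.70), an actin nucleator, Nlgn3 to the adhesion gene L1cam (0.71), and Nlgn2 to Senp3 (0.70), a SUMO protease gene 141 kb away on the same chromosome. Lrrtm1 was nearest to Snrpn (0.73), Lrrtm3 to Luc7l (0.63) and Lrrtm4 to Atp6v0d1 (0.65). Next came Telo2 and Thyn1 (0.63 each) for Nlgn1, Papola (0.69) and Ppp2r5a (0.62) for Nlgn2, and Enc1 (0.69) for Nlgn3. For the LRRTM genes they were Slc25a12 (0.69) and Elovl4 (0.66) for Lrrtm1, Nap1l5 and Syt1 (0.62 each) for Lrrtm3, and Mpp3 (0.62) and Ttc9b (0.61) for Lrrtm4. Lrrtm2, with reads in 7 of 30 of these cells, was not ranked. These are the highest of many correlations over 30 cells and are given as a description.

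Of 54 listed genes for partners, scaffolds and other synaptic organizers, 53 were found and 50 reached 1 FPKM in either group of each comparison. In LS against NS cells 27 of 50 were at least 2-fold higher in LS and 7 in NS, with a median log2 ratio of 1.28, against 33.8% and 38.9% of all genes and a median of -0.20. The highest LS means were those of Syt1, the calcium sensor of release that binds neurexin tails, at 163 ± 118 (SD, n = 35), and Clstn1, a calsyntenin, at 90.3 ± 77.8. They were followed by the PDZ adaptor Lin7b at 49.6 ± 69.2, Apba2 at 40.8 ± 46.7 and the receptor phosphatase Ptprs at 31.7 ± 23.5.

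Genes are named from here on where the ratio was at least 4-fold with reads in 50% or more of the cells of the higher group and 4 or more reads in the lower group, which leaves out genes found in fewer cells, such as Cbln2 (3.77) and Nxph1 (-5.87), chosen as examples after their values were seen. Of neurexin partners and adaptors these were Clstn1 (log2 ratio 2.98), Clstn2 (2.41), Dag1 (2.52), which encodes dystroglycan, and Lin7b (2.59). Postsynaptic scaffolds divided. Dlg2 of glutamate synapses and Gphn, the gephyrin gene of GABA and glycine synapses, were higher in LS cells at 2.44 and 2.58, whereas Shank3 of glutamate synapses was higher in NS cells, at -2.69, with means of 7.13 ± 10.8 (SD, n = 35) and 46.2 ± 71.4 (SD, n = 12). The highest NS value of Shank3, 227, was that of NS_11, whose receptor-gene level was 106%, and without NS_11 the ratio was -2.06. The part of the receptor-gene level in this was not tested. Of other adhesion systems Flrt3, a latrophilin ligand, stood at 5.16 and Ntrk3, a ligand of Ptprs, at 4.20. Il1rapl1, a ligand of Ptprd, stood at 3.28, followed by Slitrk4 (2.65), Lrrc4b (2.09) and Cadm1 (2.08). Flrt3 and Il1rapl1 had reads in 1 NS cell each, NS_13 and NS_16, and none in NS cells without it. All 13 genes named for this comparison stayed past 2-fold with any 1 cell left out, though ratios moved, that of Lin7b to 5.38 and that of Lrrc4b to 5.23 without NS_9.

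Between the LS marker classes, 27 of 50 partner genes were at least 2-fold higher in the glutamate-marked cells and 8 in the GABA-marked cells, with a median of 1.03. This is near the shares over all genes, 46.2% and 23.2%, whose median was 0.72. Ntrk3 had the highest of the named ratios, 7.17, with reads in 26 of 30 glutamate-marked cells and in 1 of 4 GABA-marked cells. Flrt2 (4.23), Slitrk5 (4.14), Lrrc4 (3.53), Dlg2 (3.48), Magi2 (3.41), Adgrl2 (3.38) and Adgrl3 (3.08) followed, and then Shank3 (2.81), Cadm2 (2.58), Lin7a (2.43), Flrt3 (2.37) and Lrrc4c (2.32). Adam10, a sheddase of synaptic adhesion proteins, was the named gene higher in the GABA-marked cells, at -3.15, with means of 68.1 ± 127 (SD, n = 4) and 7.69 ± 13.5 (SD, n = 30). It rested on LS_39, at 258.6, and without that cell the ratio was 0.73, so no direction held. The other 13 named genes stayed past 2-fold with any 1 cell left out, but 5 of them, Lin7a, Adgrl2, Lrrc4, Lrrc4c and Ntrk3, had reads in 1 GABA-marked LS cell only.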

How the data were processed

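Single neurons were prepared by Smart-seq2. The authors trimmed reads with AfterQC, aligned them to GRCm38 with STAR 2.5.3a (per the labels), counted them with featureCounts, and deposited FPKM values made with scater, 1 column per cell. The name of the deposited table speaks of counts, but its values are FPKM. The table holds all 63 cells, and 0 columns stayed unused.

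Group means of FPKM and log2 ratios of means were computed here. No test was planned, as each group is 1 sample. Within a cell, the product of a gene's FPKM and its exon length moves in equal steps, each worth 1 read, so reads were recovered with GENCODE M21 exon lengths (12156 genes) or lengths solved from the values (6780 genes). Under 200 reads, 99.998% of the recovered numbers lay within 0.01 of a whole number. Another 1247 genes stayed unsolved and were given rounded reads, and 4 rows with repeated names were left out. Recovery, ratios and correlations were tested on simulated data. The simulated ratios held counting error without further spread between cells, and the simulated correlations held no values at 0. These runs therefore do not show how ratios and correlations behave with the spread of these cells.

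The study's stated filters (low cDNA by name, under 1000 genes above 1 FPKM, mitochondrial share above 25%, reads of all astrocyte, all oligodendrocyte or all excitatory and inhibitory score markers together) removed 11 LS and 5 NS cells, which is more LS cells than the study removed. No doublet caller was run, and cells with excitatory and inhibitory markers together were removed by the study's joint score. The members, gene lists and rules were chosen with earlier results of these data known. All 9 members were named, with the 3 genes most correlated with each over the glutamate-marked LS cells (some results are not reported here), and partner genes were named if among the 5 highest in LS cells or at least 4-fold different with detection in 50% or more of the cells where they were higher and 4 or more reads where they were lower. Depth and receptor-gene levels are given with the results. Epb41l2 was the listed partner gene without a match. Summed markers of oligodendrocytes, their precursors, microglia, endothelium and blood had medians of 9.53, 0, 17.1, 0 and 0 FPKM in LS cells and 3.28, 6.07, 19.3, 0 and 0 FPKM in NS cells, those of glutamatergic neurons 758 and 208, and those of GABA neurons 1.54 and 41.5.

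Alternatives were all 63 cells, scores that need 1 FPKM per marker, cells with a receptor-gene level under 10%, means of log2(FPKM + 1) or log2(FPKM + 0.1), pooled reads, thinning to 200000 reads (seed 11), CPM, genes at 1 FPKM or more, other marker classes, joined groups and each cell left out. Chosen after seeing the data were the annotated length for Nrxn2, other cells for shares and receptor levels, and partner genes with each cell left out. Reads are PCR copies without molecular identifiers, so intervals of reads cover counting error only. Python 3.11.15, numpy 2.4.6, pandas 2.3.3, scipy 1.17.1 and matplotlib 3.10.9 were used.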

Additional observations from a re-analysis of the deposited data

How the results depend on the processing

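No paired analysis was possible because the number of a cell only names it and no test was made. The 5 genes higher in LS cells numbered 5 to 7 with a cell left out, 4 in cells with a low receptor-gene level, 7 on both log scales and 5 elsewhere. The 1 gene at least 2-fold higher in NS cells became 0 to 2 with a cell left out, 2 in cells with a receptor-gene level under 10%, 0 on both log scales, 2 on pooled reads and 2 after thinning. On the means of log2(FPKM + 1) and log2(FPKM + 0.1) the LS to NS difference was 0.05147 and 0.4044 for Nrxn2 and 1.884 and 3.219 for Nrxn3, opposite in sign to the ratios of means, which give a few high NS cells more weight, and the median of all genes moved from -0.20 to 0.26 and 0.62. The 5 genes higher in glutamate-marked LS cells numbered 4 to 6 throughout. The count of 0 in the GABA-marked cells became 0 to 1 with a cell left out, 1 with all 63 cells and 1 with LS and NS cells joined. With all 63 cells Lrrtm2 turned to -2.123. Its GABA-marked mean there rested on LS_8, a cell that the filters remove, at 19.8 FPKM, against at most 3.29 in the other GABA-marked LS cells. NS values above the receptor-gene mean numbered 32 with all 63 cells and 13 in the 3 NS cells with a low receptor-gene level, from 21, as other numbers of cells enter. Of 173 values of single genes under other settings, 153 kept their side of 2-fold. This count includes the setting of genes at 1 FPKM or more, which repeats the main values, and CPM, which nearly does. A gene at 0 in a group gave no ratio there.

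No read in 12 NS cells allows, by a limit of 3 counts, a share of cells with a read of up to 25%, and mouse, date and batch of a cell are not in the labels, so batches were not examined.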
